A study of Caenorhabditis elegans with 2 samples.

Results

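The regions described here are stretches of *Caenorhabditis elegans* chromatin listed for the tagged protein ATTF-5. Their signal was too weak to enter the authors' final peak list, yet each had a summit in the lists of both replicates. ATTF-5 is named as an AT-hook transcription factor. Chromatin was recovered from whole young adults of mixed sex, 66 hours old, of the strain OP724, with an antibody against GFP. The strain carries the mutation unc-119(tm4063) and the integrated transgene wgIs724, in which attf-5 is fused to TY1, EGFP and 3xFLAG and comes with a rescuing unc-119(+), so every animal has both a mutant and a rescuing unc-119. Both samples, biological replicates with the numbers 1 and 3, belong to 1 group, so no treatment or genotype was compared, and a region bound in few cells cannot be told apart from one bound weakly in many.

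The pooled list, labelled as peaks and background, held 30000 regions. Each had a signal value, a measure of enrichment in the scale of the authors' peak caller. A region counted as weaker but reproducible when its pooled signal was 50 or more, no summit of the thresholded list lay within 200 bp, and each replicate list had a summit within 100 bp. Of 7895 pooled regions with a signal of 50 or more, 3331 were thresholded peaks and another 80 lay within 200 bp of one. Of the 4484 left, 3243 (72.3%) had a summit in both replicate lists and are called weaker regions below. The other 1241 are used as a comparison: 696 were matched only in replicate 1, 495 only in replicate 3 and 50 in neither. Their pooled signal had a median of 58.7, against 63.7 in the weaker regions. They thus share the signal range but run lower in it. The weaker regions were thus chosen by signal and by presence in both replicates, and both are given as description. The thresholded list was the same as all pooled regions with a signal of at least 89.56, and the weaker regions therefore ran from just above 50 to 89.54 with no overlap.

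In ChIP-seq, chromatin bound by a protein is sheared, recovered with an antibody and sequenced, and a summit is the base where reads pile up most. AT hooks are short motifs that contact the minor groove of AT-rich DNA. Promoters of housekeeping genes and tRNA genes are open in most cells and often carry signal in ChIP-seq of many factors. A list of peaks is a line drawn through a continuous range of signal, and the regions below that line show what changes as signal falls.

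Sequences of 8 regions just under the threshold show how base composition varied among them. Each window below is a summit with the 50 bases on either side, 5′ to 3′ on the plus strand of WBcel235 (ce11), in lower case with runs of 6 or more A or T in capitals. The first 4 lie in promoter windows, the next pair in introns and the next pair between genes, and the last pair are the summits of strong thresholded peaks for contrast. All are from the genome sequence of RefSeq and none overlaps an exon.
T01H3.5 and vha-4, promoter, chrII:7879453-7879553: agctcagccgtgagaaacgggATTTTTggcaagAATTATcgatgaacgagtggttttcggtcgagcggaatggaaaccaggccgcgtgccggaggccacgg
C31E10.5, promoter, chrX:13995917-13996017: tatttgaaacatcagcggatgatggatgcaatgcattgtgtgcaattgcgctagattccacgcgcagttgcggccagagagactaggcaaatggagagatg
dnc-4, promoter, chrIV:8019902-8020002: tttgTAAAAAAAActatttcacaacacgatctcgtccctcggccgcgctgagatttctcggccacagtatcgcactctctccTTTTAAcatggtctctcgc
nasp-1, promoter, chrII:11106432-11106532: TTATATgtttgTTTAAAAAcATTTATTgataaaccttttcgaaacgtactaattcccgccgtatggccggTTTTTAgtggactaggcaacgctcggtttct
gck-1, intron, chrV:8949859-8949959: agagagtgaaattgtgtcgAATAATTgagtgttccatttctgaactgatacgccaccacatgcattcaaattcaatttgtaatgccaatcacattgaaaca
M01H9.3, intron, chrIV:4476035-4476135: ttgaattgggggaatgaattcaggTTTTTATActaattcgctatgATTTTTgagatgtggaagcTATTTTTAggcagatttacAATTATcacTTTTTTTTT
near sdz-19, intergenic, chrX:12500973-12501073: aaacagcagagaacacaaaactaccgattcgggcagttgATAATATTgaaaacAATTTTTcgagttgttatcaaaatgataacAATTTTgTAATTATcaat
near sli-1, intergenic, chrX:728013-728113: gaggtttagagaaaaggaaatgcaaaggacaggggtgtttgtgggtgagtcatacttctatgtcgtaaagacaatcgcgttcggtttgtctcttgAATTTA
tasp-1, thresholded peak, chrIII:10759199-10759299: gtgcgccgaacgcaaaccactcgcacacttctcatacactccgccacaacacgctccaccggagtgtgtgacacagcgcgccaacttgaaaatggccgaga
drr-2, thresholded peak, chrIII:13643686-13643786: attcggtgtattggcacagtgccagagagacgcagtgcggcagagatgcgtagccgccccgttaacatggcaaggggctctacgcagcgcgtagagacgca

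The window shared by T01H3.5 and vha-4, which encodes a subunit of the vacuolar ATPase, was 43.6% AT against 68.6% in its own flanks 150 to 200 bp away. Its pooled signal was 89.5, with 43.7 in replicate 1 and 49.04 in replicate 3. The window before C31E10.5, which also lies in the promoter window of C31E10.6, was 51.5% AT with flanks at 71.6%. Its signal was 53.7 in replicate 1 and 36.1 in replicate 3. The window before dnc-4, a dynactin subunit, was 52.5% AT with flanks at 68.6%, and its signal was 46.02 and 39.2 in replicates 1 and 3. The window before nasp-1, a histone chaperone, had almost no such dip, at 62.4% against 62.7%, with signals of 51.9 and 25.8. The intron of gck-1, a germinal center kinase, went the other way, at 64.4% AT against 55.9% in the flanks, with signals of 53.4 and 49.4. The intron window of M01H9.3 was 71.3% AT with flanks at 73.5%, and that near sli-1, the worm Cbl gene, 58.4% with flanks at 66.7%. In the window near sdz-19 AT was again higher at the summit, at 71.3% against 63.7%, with signals of 42.5 and 44.8 in replicates 1 and 3. The 2 thresholded windows were 41.6% AT at tasp-1 and 39.6% at drr-2, a translation factor, and held no run of 6 A or T. Their pooled signals were 2844 and 1916.

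Over all 3243 weaker regions the median AT content at the summit was 56.4% (SD 9.02 over regions), and 64.6% over the genome. It was 5.28 percentage points below the flanks in the median region, and 31.4% of the weaker regions had more AT at the summit than in the flanks. The thresholded peaks had a median of 53.5% (SD 8.21), 10.3 points below their flanks. The regions of the same signal range that were not in both replicates had a median of 57.4%, 2.52 points below their flanks. The weaker regions therefore lay between the 2 comparison sets in the depth of the dip. Their own median difference from the flanks was −4.29 points at signals of 50 to 60 and −6.35 points at 80 to 89.6. The regions not in both replicates were also lower in signal, and what signal adds to this order was not tested. Within promoter windows the median was 58.4% at weaker summits and 53.5% at peaks, with differences from the flanks of −5.32 and −11.3 points. Among weaker summits at noncoding genes the median was 50.5% and the dip 10.2 points, and in 3′ UTRs the summit was 0.67 points above its flanks. For peaks the differences from the flanks were −12.3 points at noncoding genes and 2.05 in 3′ UTRs. For the regions not in both replicates they were −4.36 and 0.66. No test was made over regions, since neighbouring regions and shared sequence are not independent.

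**Figure D1:**
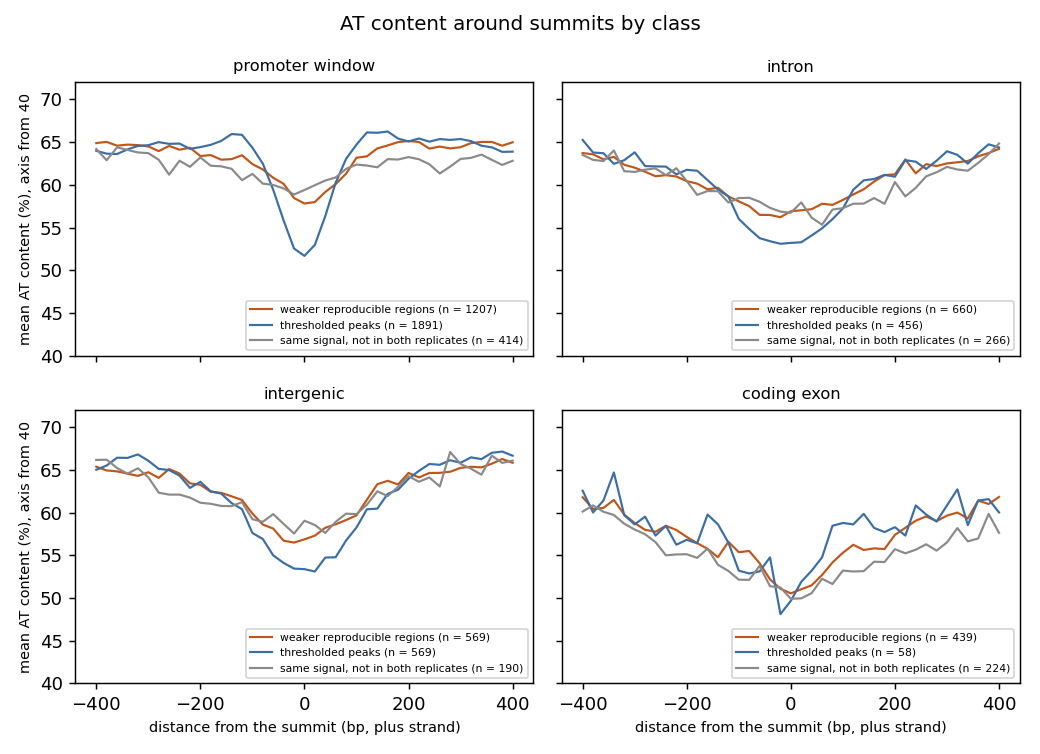
Mean AT content (percent, vertical axis from 40) in 21-base windows against distance from the summit (bp), for weaker regions (orange), thresholded peaks (blue) and regions of the same signal range not in both replicates (grey), in 4 annotation classes. In promoter windows the peaks dip deeply and narrowly at the summit, the weaker regions dip less deeply, and the grey line dips least. In coding exons all 3 lines dip at the summit.

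Short words in the 100 bp on either side of each summit were counted on both strands. The word GAGAGA lay in 26.7% of weaker regions, 40.5% of peaks and 14.2% of all 19973 windows 200 bp upstream of protein-coding 5′ ends. It lay in 25.4% of the regions not in both replicates, so the weaker regions were close to those and below the peaks. GCGCGC, its own reverse complement, was in 4.69% of weaker regions, 10.6% of peaks and 2.69% of upstream windows. The E-box CACGTG, a word that bHLH factors such as MYC relatives bind, was in 7.28%, 7.90% and 3.33%. TTTCGCG was in 3.89%, 5.79% and 2.77%. In the regions not in both replicates GCGCGC was in 3.22%, CACGTG in 7.09% and TTTCGCG in 3.63%. CACGTG and TTTCGCG were thus about as frequent there as in the weaker regions. Within promoter windows CACGTG was in 7.29% of weaker regions, 5.82% of peaks and 6.04% of the regions not in both replicates. The upstream windows were not matched to the summits in AT content. Words of A and T were rarer at weaker summits than upstream of genes, and were so at peaks too. AAATTT was in 24.5% of weaker regions, 23.4% of peaks and 42.9% of upstream windows, AATATT in 12.4%, 13.1% and 24.6%, and a run of 15 or more A or T in 10.8%, 11.1% and 25.1%. TATATA was in 5.03%, 3.99% and 7.97%, and AAAAAA in 49.4%, 52.5% and 69.1%. Most weaker summits lie outside promoters, and at the 1207 within promoter windows the gaps to upstream windows were narrower for words of A and T. There AAATTT was in 29.2%, AATATT in 17.8%, a run of A or T in 15.99%, TATATA in 5.97% and AAAAAA in 54.9%. The gap was wider for GAGAGA, which was in 28.6% of them and in 36.1% of promoter peaks. GCGCGC and TTTCGCG can share letters, and runs of A or T can hold the AT words. A match says only that the letters are present.

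The 2 replicates shared the signal unequally from region to region. The signal in a replicate was that of the nearest summit in its list. Replicate 1 signal at the weaker regions had a median of 34.2 (14.4 to 119.8) and replicate 3 signal a median of 29.2 (12.3 to 79.3). The deposited −log10 q, higher for more confident calls, had medians of 1.26 in replicate 1 and 1.51 in replicate 3. Lower quartiles were 0.64 and 0.68, and matched peaks had medians of 3.61 and 3.63. A summit in a replicate list is therefore not by itself a confident call. The median log2 ratio of replicate 1 to replicate 3 was 0.23 with an SD of 0.75 over regions, and 0.12 with an SD of 0.52 over the 3182 peaks matched in both. In 610 weaker regions (18.8%) the ratio was more than 2-fold away from the median ratio, and in 208 matched peaks (6.54%). The sum of the replicate signals was close to the pooled signal, with a median of 0.99 times it, and was within 10% of it in 79.8% of weaker regions. The rule holds the pooled signal between 50 and 89.6, which limits how high both replicates can be together, and Spearman's rho between replicates was −0.24 over the 3243 regions, given as description. The replicate summits lay a median of 12 bp (replicate 1) and 18 bp (replicate 3) from the pooled one, against 8 and 13 bp for peaks. Both lay within 50 bp in 64.8% of weaker regions and 80.04% of matched peaks.

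**Figure D2:**
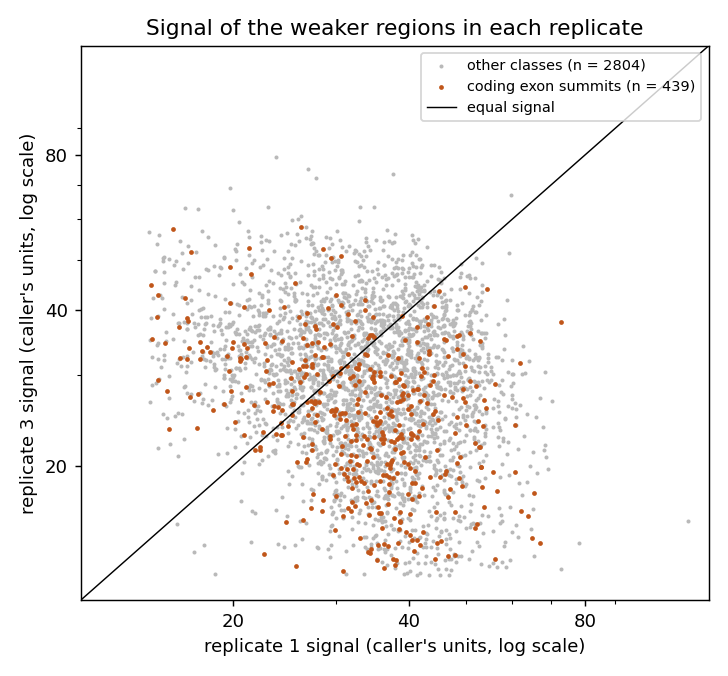
Signal of each of the 3243 weaker regions in replicate 1 (horizontal) and replicate 3 (vertical), both on log axes in the caller's units, with the 439 coding exon summits in orange and the line of equal signal in black. The pooled signal, held between 50 and 89.6, limits most of the cloud, but not the region at hmg-1.1, with 119.8 in replicate 1. Most orange points lie below the line.

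The 3 regions with the highest and the 3 with the lowest ratio of replicate 1 to replicate 3 are given next. At hmg-1.1, a gene of the HMGB family of chromatin proteins, the signal was 119.8 in replicate 1 and 15.7 in replicate 3, but the replicate 1 summit was 96 bp from the pooled one and a thresholded summit was 201 bp away. At his-72, which encodes the histone variant H3.3, it was 78.0 and 14.2, and in the 3′ UTR of ekl-7 it was 72.7 and 12.6. In the other direction wdr-23, a regulator of the stress factor SKN-1, had 14.4 in replicate 1 and 56.8 in replicate 3, with a thresholded summit 203 bp away. The promoter region of hpo-11 had 16.6 and 63.1 and lay 207 bp from a thresholded summit. The region in an intron of pab-2, a poly(A)-binding protein gene, had 15 and 55.9, and its nearest thresholded summit was 658 bp away. Of these 6 regions, hmg-1.1, wdr-23 and hpo-11 lay just past the 200 bp that the rule sets. The pooled signal was 52.7 at hmg-1.1, below its replicate 1 value, and 56.6 at hpo-11, below its replicate 3 value. At hmg-1.1 and hpo-11 the matched replicate values therefore do not make up the pooled one. At wdr-23 the pooled signal was 69.2, above both replicate values. Whether the signal of these regions belongs to the neighbouring peak was not tested.

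Where the line is drawn changed what the list contained. Among pooled regions more than 200 bp from a thresholded summit, the share with a summit in both replicates rose with signal. It was 2.78% at signals of 20 to 30, 21.2% at 30 to 40, 45.4% at 40 to 50, 64.2% at 50 to 60 and 84.1% at 80 to 89.6. The lowest replicate signals at any weaker region were 14.4 in replicate 1 and 12.3 in replicate 3. Pooled regions of low signal can thus fall below what both replicate lists hold. How far the ends of these lists set the low shares was not tested. The regions just below the signal minimum ran from 49.96 to 49.99, near mef-2 and W02D9.9 among others, and the weakest members were 50.005 in ikke-1 and 50.011 in npp-21, a nuclear pore gene. The lowest thresholded peaks had 89.56 to 89.69. The weaker regions were spread over all 6 nuclear chromosomes, from 26.8 per Mb on chromosome IV to 41.4 per Mb on chromosome III. Chromosome V had 600 weaker regions and 487 peaks, a ratio of 1.23, where it was 0.97 over the genome and 0.88 on chromosome IV.

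For promoter windows, coding exons, introns, intergenic bases and noncoding genes the share of weaker summits stood between that of the peaks and that of the genome; for both kinds of UTR it was above both. Each summit took 1 class, with promoters first, a promoter window being 1000 bp before to 200 bp after an annotated protein-coding 5′ end. Promoter windows held 1207 weaker summits, 37.2% (exact binomial 95% interval 35.6 to 38.9), against 56.8% of peaks, 33.4% of the regions not in both replicates and 21.5% of genome bases. Coding exons held 439, 13.5% (12.4 to 14.8), against 1.74% of peaks, 18.05% of the regions not in both replicates and 19.6% of bases. Introns held 20.4% and intergenic bases 17.5% of the weaker summits, where peaks had 13.7% and 17.1% and genome bases 29.9% and 21.6%. Noncoding genes held 196 weaker summits (6.04%), against 7.90% of peaks and 4.10% of bases. The 3′ UTRs held 134 (4.13%, interval 3.47 to 4.87), against 1.68% of peaks, 5.802% of the regions not in both replicates and 2.58% of bases. The 5′ UTRs held 38 (1.17%), against 1.14% of peaks and 0.82% of bases. The intervals cover counting error only. They do not allow for the lower signal of the regions not in both replicates. The coding exon share fell along the range of signal, from 17.9% at 50 to 60 to 14.1% at 60 to 70, 8.55% at 70 to 80 and 7.83% at 80 to 89.6, and it was 3.23% in peaks up to a signal of 120.

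**Figure D3:**
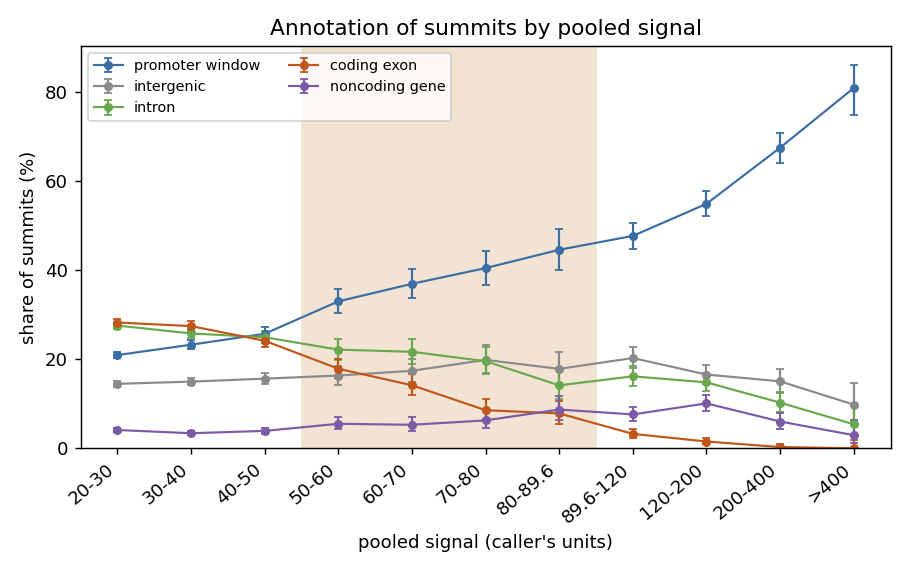
Share of summits (percent, with exact binomial 95% intervals) in 5 annotation classes by pooled signal, with the range of the weaker regions shaded. Points in the shaded range hold regions seen in both replicates, points to the left hold pooled regions away from peaks whether or not they were in both, and points to the right hold peaks. Through the shaded range the promoter share climbs and the coding exon share falls from 17.9% to 7.83%.

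Weaker promoter summits were placed less tightly than peaks. Their median distance was −180 bp from the nearest 5′ end, negative upstream (quartiles −459 and −44 bp), against −195 bp (−351.5 and −100 bp) for peaks. Of the weaker promoter summits 42.7% lay within 250 bp upstream, 22.5% more than 500 bp upstream and 16.5% downstream of the 5′ end. For peaks these shares were 52.2%, 16.3% and 8.51%. A divergent promoter, shared by genes on both strands, held 16.98% of weaker promoter summits and 31.7% of promoter peaks. The median distance from a weaker region to the nearest peak was 6407 bp, and 744 (22.9%) had a peak within 2 kb. For the regions not in both replicates these values were 5315 bp and 26.7%. Both sets leave out regions within 200 bp of a peak, and no distance was taken for random positions.

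**Figure D4:**
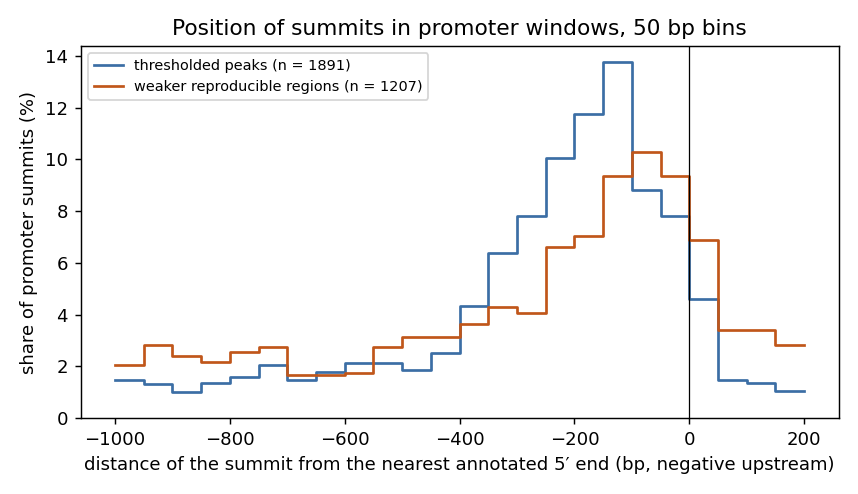
Share of promoter summits (percent) in 50 bp bins of distance from the nearest annotated 5′ end (bp, negative upstream) for 1207 weaker regions and 1891 peaks. Peaks pile up between 250 and 100 bp upstream, while the weaker regions are flatter and reach further past the 5′ end.

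The strongest promoter regions below the threshold stood before genes of many kinds. The region at the 5′ end of fbxc-54, an F-box gene, had a pooled signal of 89.5, with 36.1 in replicate 1 and 52.4 in replicate 3. The region shared by nse-1, a component of the SMC5/6 complex, and usp-5, a ubiquitin-specific protease, had 40.5 and 49.4. At lem-3, a nuclease with a LEM domain, the replicates differed more, with 68.4 and 30.4. Others among the 15 strongest were aagr-2, cyp-33E2 (a cytochrome P450), cccp-1, sax-1 (an NDR kinase that shares its region with R11G1.2) and vps-36 (a subunit of ESCRT-II). Their pooled signals, like those of the other strongest ones, were within 1 unit of the threshold.

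A weaker region lay in the promoter window of 1389 of 19973 protein-coding genes (6.95%). Of these genes 142 also had a peak, and 1247 had none, which is 7.12% of the 17512 genes without a peak. Among genes with a peak the share was 5.77%. One gene had 3 weaker regions and no peak: spg-20, the spartin gene, with pooled signals of 64.2, 75.9 and 52.6. The 75.9 region is also the promoter region of ucr-11, a gene of the respiratory chain. The genes sma-3, a Smad of TGF-beta signalling, and rbm-7 had 2 each, and snf-6 and mtg-1 shared a pair.

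Proteasome subunit, ribosomal protein and vacuolar ATPase genes had the highest shares of weaker regions among their genes without a peak. Of 31 proteasome subunit genes 16 had a peak, and 9 of the other 15 (60%) had a weaker region, set beside 7.12% over all genes without a peak. They included rpn-7, of the regulatory particle, with 45.6 and 41.5 in replicates 1 and 3, and rpn-1, with 20.04 and 62.6. Of 81 ribosomal protein genes 66 had a peak, and 7 of the other 15 (46.7%) had a weaker region. The region of rla-0, the acidic stalk protein P0, had 50.6 and 37.3, that of rps-5 had 48.3 and 40.1, and that of rps-2 had 45.4 and 47.4. At vacuolar ATPase genes the count was 4 of 10 without a peak (40%), at nuclear pore genes 4 of 12, at cell cycle and replication genes 21 of 63 (33.3%) and at spliceosome and splicing factor genes 10 of 37 (27.03%). Translation factor genes had 4 of 16 (25%) and respiratory chain genes 5 of 25 (20%). The nuclear pore gene npp-18 had 40.7 and 48.9.

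With peaks and weaker regions counted together, 73 of 81 ribosomal protein genes and 25 of 31 proteasome genes had a summit, beside 3708 of all 19973 protein-coding genes (18.6%). Mitochondrial ribosomal protein genes reached 33 of 67, of which 12 through a weaker region alone. The median over the 46 lists was 11.7% of genes without a peak, and 31 lists were above the 7.12% of all genes. The lists overlap, and 925 of the 1247 genes are in none of them.

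Among several large families the share with a weaker region was below the 7.12% of all genes without a peak. Among 1301 chemoreceptor genes without a peak, 10 (0.77%) had one, the strongest at srh-17 with 36.1 and 40.9 in replicates 1 and 3. Homeobox genes had 1 of 90, at ceh-83, neuropeptide and insulin-like genes 3 of 143, hedgehog-related genes 1 of 82 and sperm genes 1 in all. Nuclear hormone receptor genes, also a large family, were above that share with 24 of 243 (9.88%), led by nhr-133 with 36.9 and 51.03. Among tissue markers body-wall muscle had 6 of 38 (15.8%), with the myosin light chain gene mlc-2 at 41.95 and 41.6, and intestine 6 of 51 (11.8%), with the cathepsin B gene cpr-4 at 38.4 and 45.9. Germline and oocyte markers had 4 of 68 (5.88%), and neuron, epidermis and pharynx markers 1 each of 31, 36 and 37. Vitellogenin genes, which encode yolk proteins, had 0 of 6.

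**Figure D5:**
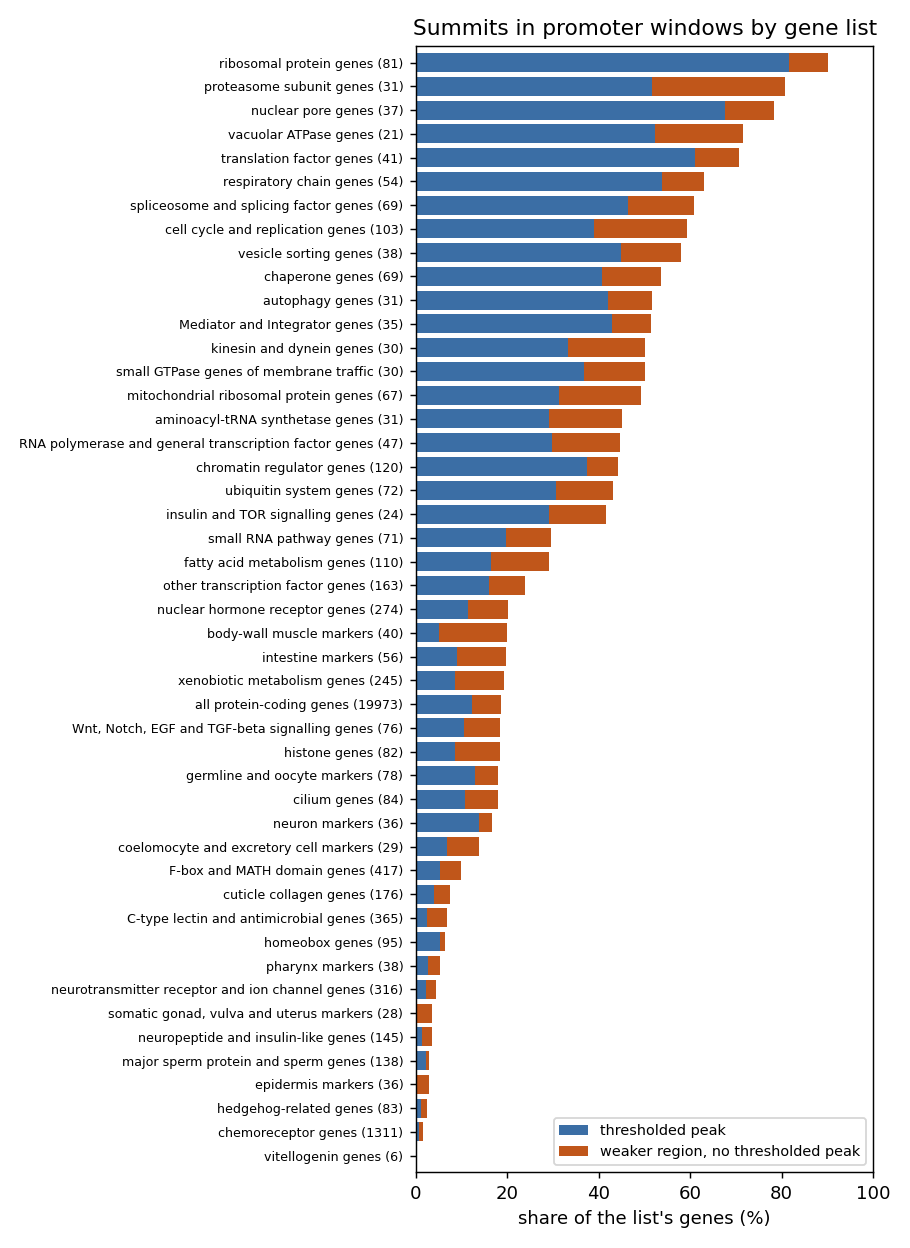
Share of each gene list (percent, number of genes in brackets) with a thresholded peak in the promoter window (blue) and with a weaker region but no peak (orange). Ribosomal protein and proteasome genes reach 90.1% and 80.6% with both counted, and chemoreceptor genes 1.53%.

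The weaker summits in coding exons are taken here on their own, since this class differed most between weaker regions and peaks apart from promoters. They lay in 415 of 19973 protein-coding genes (2.08%), at a density of 1.78 per 100 kb of coding sequence. Peaks lay in coding exons of 57 genes and the regions not in both replicates in those of 213. Of the 439 weaker summits 209 (47.6%, interval 42.9 to 52.4) were in the last of 3 equal parts of the gene, which holds 36.5% of such bases. The same part held 55.2% of the coding exon peaks (interval 41.5 to 68.3) and 40.6% (34.1 to 47.4) of the coding exon regions not in both replicates. Intron summits did the reverse, with 20.6% in that last part against 26.7% of bases. Intron peaks did so too, with 17.5%, as did the intron regions not in both replicates, with 18.8%. Outside promoter windows 13.9% of the weaker summits were within 250 bp of a protein-coding 3′ end, against 7.26% of bases and 12.2% of such peaks.

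Cuticle collagen genes, which encode the main proteins of the worm's outer layer, were the densest list for coding exon summits. Of 176 such genes 21 had one (11.9%, beside 2.08% of all genes), at 12.1 per 100 kb of coding sequence, although 6 of 169 without a peak had a weaker region in the promoter window. Coding exon regions that were not in both replicates lay in 17 of the 176 collagen genes, beside 213 of all 19973 genes. Coding exon peaks lay in 1 of the 176, beside 57 of all genes. The excess at collagen genes was therefore not particular to the weaker regions. The pooled signals of the 21 ran from 51.5 to 88.98 with a median of 61.7. The highest was at col-107, with 48.3 in replicate 1 and 33.7 in replicate 3. The region of sqt-3, mutants of which have a short body, had 53.8 and 26.9, and that of col-45, one of the lowest, had 35.4 and 13.2. Replicate 1 was the higher in 18 of the 21. Collagen genes are alike in sequence, and how reads that match several of them were placed is not given in the sources used here.

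Other lists had lower densities. Of the 46 lists 25 were above the density over all genes and 10 had no coding exon summit, homeobox genes among them. Chemoreceptor genes had 0.077 per 100 kb. Translation factor genes had 5 coding exon summits at 9.57 per 100 kb, among them eef-1A.1, elongation factor 1 alpha, with 32.9 and 31.5, and eef-2, elongation factor 2, with 33.8 and 16.998. Pharynx markers had 7.34, chaperone genes 7.33 and germline and oocyte markers 6.84 per 100 kb, from 4, 6 and 10 summits. Coding exon regions not in both replicates lay in 2 of 41 translation factor genes and 0 of 38 pharynx markers. They lay in 1 of 69 chaperone genes and 5 of 78 germline and oocyte markers. Body-wall muscle markers had 5 in all, at 2.43 per 100 kb: unc-22 (twitchin), unc-89 (obscurin), unc-15 (paramyosin), myo-3 (a myosin heavy chain) and tnt-3 (a troponin T). The region of unc-22 had 52.1 and 28.6, and that of unc-15 had 35.5 and 14.1. Ribosomal protein genes had 1 coding exon summit, at 2.52 per 100 kb beside 1.78 over all genes. The genes with the most were cpt-1, a carnitine palmitoyltransferase, with 4, and ets-4, an ETS transcription factor, and eel-1, a ubiquitin ligase, with 3 each.

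Replicate 1 gave the higher signal at a larger share of the coding exon summits than of the other classes. It was higher at 321 of 439 (73.1%, interval 68.7 to 77.2), with medians of 34.1 in replicate 1 and 25.3 in replicate 3 and a median log2 ratio of 0.50. In promoter windows it was higher at 724 of 1207 (59.98%), with a median log2 ratio of 0.20, and in introns at 385 of 660 (58.3%), with 0.19. Among peaks the lean was not particular to coding exons. Of the 51 coding exon peaks matched in both replicates 37 (72.5%) were higher in replicate 1, with a median log2 ratio of 0.42. The share was 76.9% in 3′ UTR peaks and 80.4% in noncoding peaks, with 0.51 and 0.39. At weaker summits it was 64.2% in 3′ UTRs and 63.8% in noncoding genes, with 0.38 and 0.31. With 1 library of each number, a difference between the replicates has no error of its own.

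A noncoding gene was counted when it, or the 200 bp around it, held a weaker summit, which was so for 652 of 26917 noncoding genes and pseudogenes (2.42%). Of these 652, 411 were of the type annotated as ncRNA, 5.29% of its 7764 genes. The many piRNA genes, given below, lower the share over all types. The tRNA genes had the highest share of the noncoding types: 106 of 612 (17.3%) had a weaker region, and the share was 31.8% among the 318 without a peak. The strongest tRNA region, at WBGene00023203, had 60.9 in replicate 1 and 24.9 in replicate 3, and that at WBGene00014379 had 60.3 and 30.1. Many tRNA genes are near-identical copies, so reads may be shared among them. Small nucleolar RNA genes had 20 of 346, small nuclear RNA genes 12 (9.30%), led by sls-2.15, a spliced leader gene, and microRNA genes 13 of 261, led by mir-87 with 32.8 and 59.6. The piRNA genes had 25 of 15363 and ribosomal RNA genes 0 of 20.

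Of the genes carried by the transgene, attf-5 had no weaker region within it or 1 kb of it, and unc-119 had 1 inside, with a pooled signal of 67.4. Within 50 kb of the 5′ end of each there were 3, where the genome as a whole had 32.3 per Mb.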

How the data were processed

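Peak lists of ATTF-5 ChIP-seq from whole young adults were used, from 2 biological replicates of 1 group and from their pooled alignments. Per the labels, the authors made the pooled and replicate lists against the same control and the thresholded list by reproducibility. The peak caller, its scale and the read depth are not given in the sources used here. The deposited signal column was used as given, and the deposited −log10 q column for description only. Coordinates are ce11, the same sequence as WBcel235, with genes from Ensembl release 115 and bases from RefSeq.

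Summits were classed, counted and compared with Python 3.11.15, pandas 2.3.3, numpy 2.4.6 and scipy 1.17.1, and the selection was checked on simulated regions. A classed summit took the first match of promoter window, UTR (5′ before 3′), coding exon, then noncoding genes, introns and intergenic bases. No test was made over regions or genes. Intervals, where given, are exact binomial 95% ones, and the shares of gene lists and noncoding types are given without them. AT content was taken over a summit and the 50 bases on either side. Named regions are the strongest of each class, the weakest, those with the most unequal replicates, and up to 4 strongest of a gene list; which of these the text gives, and the genes named for coding exon summits, were chosen after their values were seen. The members and the gene lists were chosen with earlier results of these data known, and the 46 lists, matched by gene symbol, were compiled after the files had been opened.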

Additional observations from a re-analysis of the deposited data

How the results depend on the processing

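Of 108 values recomputed for 13 results under 10 other settings, 86 stayed close (within the 95% interval of a share or median, or within 1.5 times a count) and 22 moved. Only medians could change sign, and none did. Dropping members within 200 bp of a stronger one left 3241 regions, and leaving out those near attf-5 and unc-119 left 3237. These settings could therefore hardly move a value. With a signal minimum of 40 there were 4942 weaker regions, with a promoter share of 33.6%, coding exon share of 17.2%, noncoding gene share of 5.24%, 21.2% with a peak within 2 kb, and summits 4.35 points below their flanks (−4.35). With a minimum of 70 there were 1115, with promoter, intron, intergenic, coding exon and noncoding gene shares of 42.2%, 17.3%, 19.01%, 8.25% and 7.26%, 25.4% with a peak within 2 kb, an AT difference of −6.31 points, 560 genes with a weaker region, 506 of them without a peak, and 7 ribosomal protein genes with a weaker region, peak or not, where the count at a minimum of 50 was 11. Replicate summits within 50 bp left 2103 regions and 7 ribosomal protein genes. Keeping 500 bp from peaks gave 19.4% with a peak within 2 kb, and a window of 500 bp upstream to 100 bp downstream gave a promoter share of 26.8%. Requiring a summit in 1 replicate list only gave coding exon shares of 13.6% to 14.8%. The ratio of replicates has no value there. No paired analysis was possible because there is 1 group. Precision is limited by 2 libraries of unknown depth.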
